A study of Drosophila melanogaster with 4 samples.

Results

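The peaks of Maleless (MLE) in male Drosophila melanogaster embryos aged 2-4 h were compared between progeny of control mothers and progeny of mothers depleted of CLAMP. Control mothers were MTD-GAL4>GFPRNAi and depleted mothers MTD-GAL4>CLAMPRNAi. MTD-GAL4 drives expression in the germline of the mother, so both groups carried an RNAi construct and the depletion concerned the maternal supply of CLAMP. The embryos of both groups were obtained as males through meiotic drive stocks, and whole embryos from several egg-layings went into the libraries. MLE was profiled with the rat antibody 6E11 by CUT&RUN, in which micrococcal nuclease tethered to the antibody cuts the DNA around bound sites. The titles of these samples call the age pre-MZT (before the maternal to zygotic transition), whereas the design text calls it post-MZT. The design text names 2 replicates per genotype and age and an average of 7000000 to 10000000 reads per sample. Each group was represented here by 1 deposited peak list, and how replicates entered it is not stated, so no difference between the genotypes could be tested and each interval given here covers counting error over peaks only, at 95%. Peaks with equal chromosome, start and end were collapsed to 1 peak with the highest score. A peak was called common when any base of it lay within a peak of the other list, and control-only or RNAi-only otherwise. The pair of lists held 40916 peaks on the X, chromosome 4 and the arms of chromosomes 2 and 3 (6 arms in all), of 91651 in the 4 lists of the series. Coordinates are 1-based on build dm6, which the submitters' processing notes name.

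MLE is an RNA helicase that unwinds the roX RNAs so that they can be assembled with the MSL proteins into the dosage compensation complex. That complex spreads along the single X of males and raises its transcription, and it enters the X at sites rich in GA repeats. CLAMP is a zinc finger protein that binds GA repeats, opens chromatin in the early embryo and helps to recruit the complex to the X, and it is loaded into the egg by the mother.

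There were 25026 control peaks, which covered 8.88 Mb, and 15890 CLAMP RNAi peaks, which covered 4.66 Mb. The lists differed in the grain of their scores, the authors' own value per peak, which has no common scale between lists. The 4 commonest scores (24, 32, 17 and 41) held 57.1% of CLAMP RNAi peaks, whereas the 4 commonest scores of the control list (36, 33, 31 and 39) held 10.9% of its peaks. Scores above 50 were reached by 62.0% of control peaks and by 20.9% of CLAMP RNAi peaks. The files used here hold no read total for either list, and the part that depth plays in any difference below cannot be told apart from the genotype.

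Common peaks numbered 10169 in the control list, or 40.6% of it, and the remaining 14857 peaks were control-only. In the CLAMP RNAi list 10327 peaks were common and 5563, or 35.0%, were RNAi-only. These shares depended on the peaks admitted. When the upper 50% of a list by score was looked up in the whole other list, 60.6% of control peaks were common and 20.1% of CLAMP RNAi peaks were RNAi-only. A score of at least 50 in both lists left 15549 control and 3887 CLAMP RNAi peaks, lists of less equal length, and the shares were then 20.9% and 16.3%. Since scores have no common scale, a cut at 50 did not mean the same in both lists.

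The X held a larger part of common peaks than of peaks found in a single list. X peaks made up 29.4% (28.5% to 30.3%) of common control peaks, 21.2% (20.6% to 21.9%) of control-only peaks and 19.7% (18.7% to 20.8%) of RNAi-only peaks. On the X, 2990 of 6141 control peaks had a CLAMP RNAi peak, or 48.7% (47.4% to 49.95%). The large autosome arms lay close together, from 36.6% (35.1% to 38.1%) on 2L to 39.9% (38.4% to 41.5%) on 2R. The small chromosome 4 had 65 common peaks among 190, or 34.2% (27.5% to 41.4%). On the Y, which is counted apart from the 6 arms, 68 of 123 control peaks were common, or 55.3% (46.1% to 64.3%). The difference between X and autosomes was 10.7 percentage points (9.25 to 12.1), and 6.95 points (5.46 to 8.47) with a score of at least 50 in both lists. Neither value was adjusted for score, and X control peaks were more numerous at high scores. The lowest score decile of the control list held 493 X and 2010 autosomal peaks, and the highest held 835 and 1667.

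RNAi-only peaks had shares over the arms in nearly the reverse order of the common shares, with only 2R and 3R exchanged. They made up 26.3% (24.9% to 27.7%) of CLAMP RNAi peaks on the X, 35.7% on 3R, 36.3% on 2R and 39.9% and 40.0% on 3L and 2L. On chromosome 4, 79 of 144 CLAMP RNAi peaks, or 54.9% (46.4% to 63.2%), had no control peak. Among the 6 arms, chromosome 4 was the only one on which RNAi-only peaks outnumbered common CLAMP RNAi peaks.

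**Figure D1:**
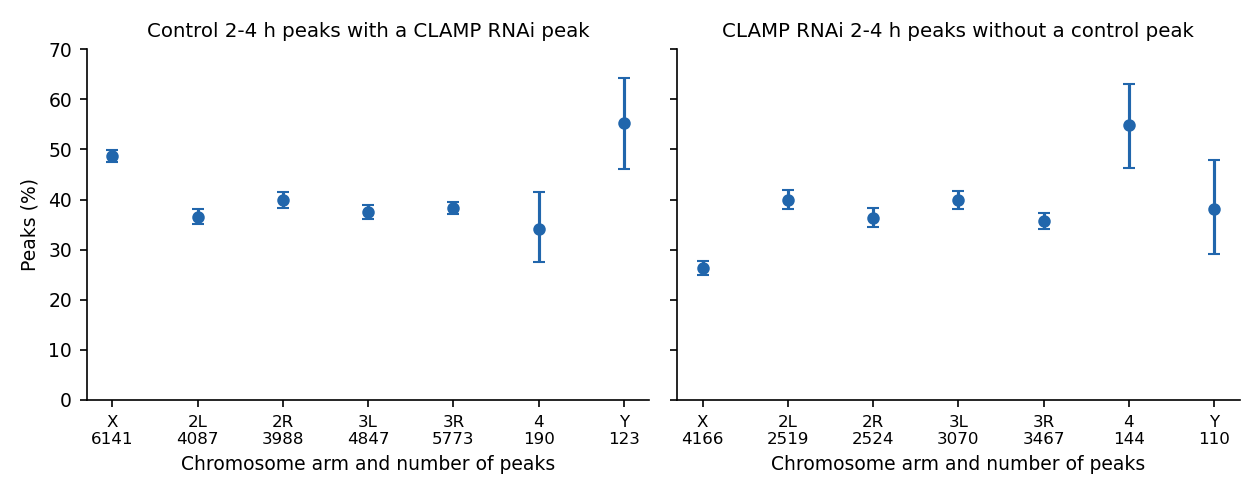
Share of control 2-4 h peaks with a CLAMP RNAi peak (left) and of CLAMP RNAi 2-4 h peaks without a control peak (right), in percent, by chromosome arm with the number of peaks under each; bars are exact 95% intervals of counting error. The X lies above the large autosome arms on the left (48.7%) and below them on the right (26.3%), and chromosome 4 is highest on the right (54.9%).

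The share of common peaks was higher at higher scores in both directions of lookup, though not in steady steps. Among X peaks of the control list it went from 18.9% (15.5% to 22.6%) in the lowest score decile to 96.7% (95.2% to 97.8%) in the highest. Among autosomal control peaks it went from 14.98% (13.4% to 16.6%) to 93.0% (91.7% to 94.2%). The X share lay above the autosomal share in each of the 10 deciles, although intervals overlapped in several, with 50.5% against 41.5% in the seventh and 18.1% against 16.9% in the second. CLAMP RNAi peaks started higher: in the lowest decile 58.1% of X peaks and 41.1% of autosomal peaks had a control peak. Their X share fell back from there to 50.9% in decile 2, and from 70.2% in decile 5 to 65.9% in decile 6. In that list 57.1% of peaks sat at 4 scores and ties were split at random. Neighbouring deciles there thus partly hold the same score, and these falls cannot be read as steps of strength. At the strong end, decile 10, the X share was 94.9% (92.6% to 96.6%) and the autosomal share 92.8% (91.0% to 94.3%), and these intervals overlap.

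**Figure D2:**
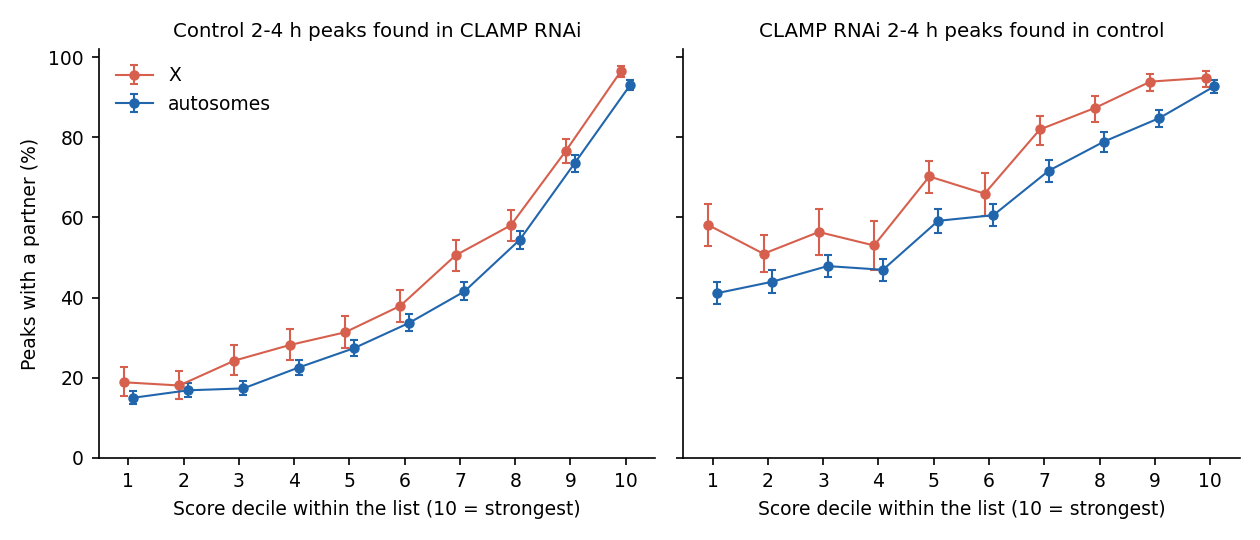
Percent of peaks with a partner in the other 2-4 h list, by score decile within the list (10 is the strongest), for the X and the autosomes; points are shares and bars exact 95% intervals. In control the shares climb from 18.9% (X) and 14.98% (autosomes) to 96.7% and 93.0%.

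The lists of 0-2 h embryos served as an outside lookup for both kinds of peak. Of common control peaks, 82.2% (81.4% to 82.9%) had a peak in both 0-2 h lists. Of control-only peaks, 44.3% (43.5% to 45.1%) did, and 25.4% (24.7% to 26.1%) had none in either. Most RNAi-only peaks, 4227 of 5563 or 76.0% (74.8% to 77.1%), had no peak in either 0-2 h list. They were found in the CLAMP RNAi list of 0-2 h in 12.1% (11.3% to 12.98%) and in the control list of 0-2 h in 16.7% (15.8% to 17.7%). In the strongest decile the contrast between control-only and RNAi-only peaks was wider, while control-only and common control peaks were nearly alike. Of the 144 control-only peaks there, 142 had a peak in both 0-2 h lists, as did 2357 of the 2358 common control peaks. Of the 104 RNAi-only peaks there, 2 did and 75 had a peak in neither, whereas 1393 of 1485 common CLAMP RNAi peaks had a peak in both.

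Common peaks were wider than peaks of a single list. The median width was 381 bp for common control peaks (quartiles 372 and 410 bp) and 323 bp for control-only peaks (206 and 380 bp). In the CLAMP RNAi list it was 354 bp for common and 200 bp for RNAi-only peaks, and 200 bp is the lowest width in these lists. Peaks of exactly 200 bp made up 3.78% of common control peaks, 18.3% of control-only peaks, 24.9% of common CLAMP RNAi peaks and 58.3% of RNAi-only peaks. A second frequent size, within 2 bp of 380 bp, held 27.0% of common control peaks and 8.02% of RNAi-only peaks. Seen from the width, 12.4% (11.3% to 13.6%) of control peaks of 200 bp had a CLAMP RNAi peak, against 64.4% (63.2% to 65.6%) of those wider than that second size.

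**Figure D3:**
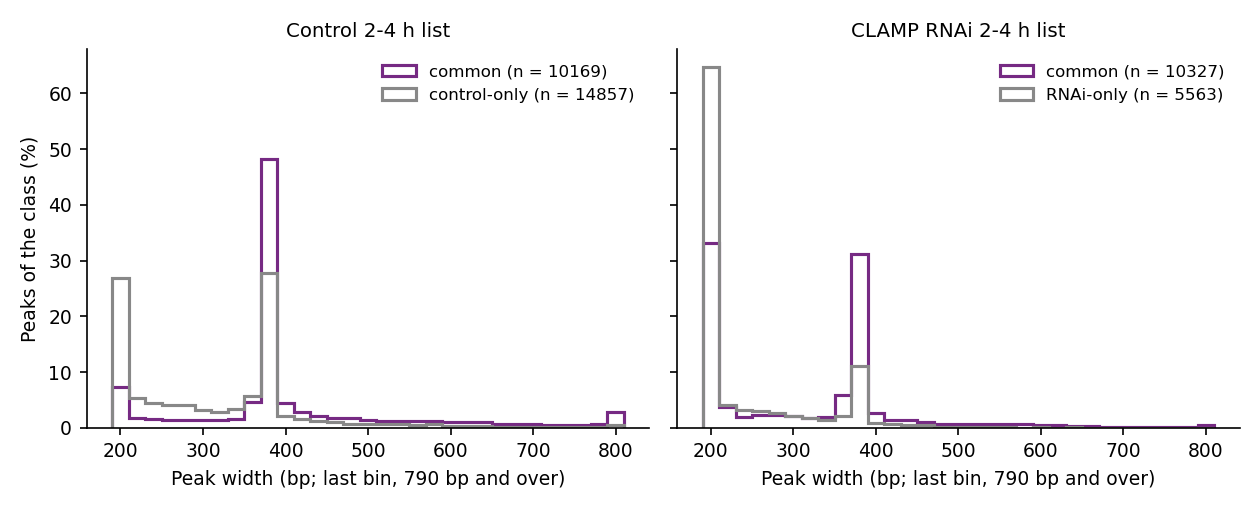
Width of common peaks and of peaks found in a single list, in percent of each class per 20 bp bin, for the control list (left) and the CLAMP RNAi list (right). RNAi-only peaks pile up at 200 bp, and common peaks stand highest in the bin around 380 bp in the control list.

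Where both lists had a peak, the CLAMP RNAi peak was the narrower for most pairs. Of the 10169 common control peaks, 9960 had a single CLAMP RNAi partner and 209 had more. Midpoints were 56 bp apart in the median (quartiles 4 and 91 bp), a distance that the overlap rule bounds, and 4.87% of pairs had the same start and end. The partner lay within the control peak for 53.1% of them and was narrower for 72.7%, and it was wider for 19.9%. Edges matched most closely at strong sites: both edges agreed within 2 bp for 130 of the 248 common peaks in the top 1% of the control list, or 52.4%, and for 4.34% of those in its lower 50%. The order of scores in the pair of lists was loosely shared, with a Spearman's rho of 0.52 over the 10169 pairs, which share the antibody and the genome and of which a few share a partner. It was 0.58 over the 2990 pairs on the X and 0.49 over the 7179 autosomal pairs.

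**Figure D4:**
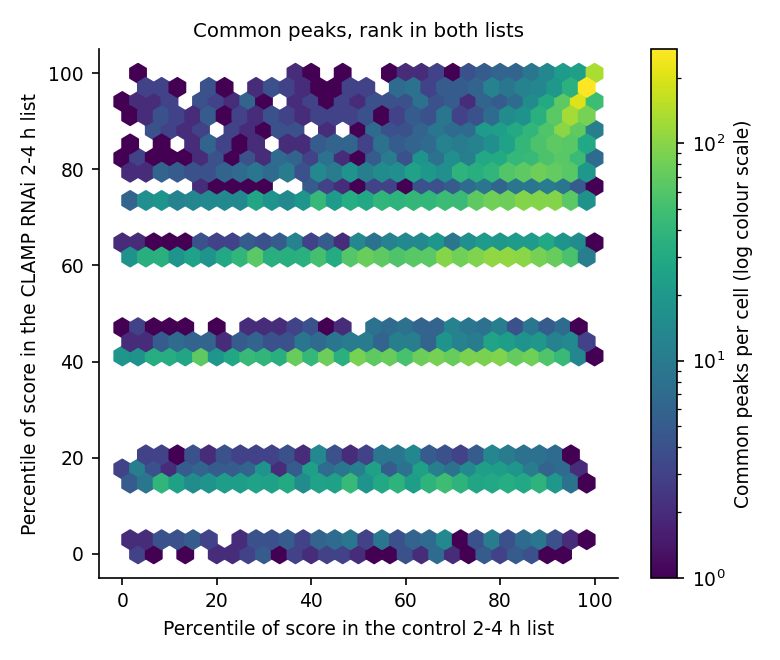
Percentile of the score in the control 2-4 h list (horizontal) and in the CLAMP RNAi 2-4 h list (vertical) for the 10169 common peaks, as cells coloured by the number of peaks on a log scale. Empty horizontal bands mark the steps between the commonest CLAMP RNAi scores, and the densest cells lie at the upper right.

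The 15 common peaks with the highest joint rank were sharp sites with nearly identical edges in both lists, and each was also present in both 0-2 h lists. Their control widths ran from 375 to 769 bp, and both edges agreed within 2 bp for 11 of the 15. First came the peak inside Cdep, which encodes a FERM domain RhoGEF, at 3R 4919031 to 4919411. It had the same edges in both lists, with a score of 2999688 in control and 47433 in CLAMP RNAi, ranks 1 and 4. Next on 3R was a peak inside cno, the junction protein Canoe, at 5182883 to 5183263 with scores of 202251 and 15674. A peak in gpp, the H3K79 methyltransferase Grappa, at 3R 6416580 to 6416968 scored 334054 in control and 4004 in CLAMP RNAi.

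Of these 15 sites 4 lay on the X. One was at 1625358 to 1625735 within the overlapping genes br, an ecdysone-response transcription factor, and Mur2B, with scores of 158325 and 17020. Another was at 13593632 to 13594051 in up, which encodes troponin T, 367 bp from a gene end and with scores of 139201 and 7194. The other two lay beside CG12115 and in BORCS5. The widest of the 15, 769 bp at 2R 17391646 to 17392414, spanned tRNA:Ala-TGC-1-1 and tRNA:Ala-TGC-2-1 and had the same edges in both lists. Further sites lay in Ip6k, an inositol hexakisphosphate kinase, and in Rgk1, a small GTPase, both on 2R.

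The strongest control-only peaks were sites that the 0-2 h embryos of both genotypes also had. All 15 of the strongest had a peak in the control and in the CLAMP RNAi list of 0-2 h, as had all 15 common peaks above. Of these control-only peaks, 13 lay inside a gene and 6 on the X. The first was in CG42699, at X 5788673 to 5789078, with a control score of 77317 and 2318 bp between it and the nearest CLAMP RNAi peak. The same gene carried 6 further control peaks, of which 5 were common, among them X 5770470 to 5771078 with scores of 3896 and 129. The second was in the pair-rule gene hairy (hry), at 3L 8676863 to 8677228 with a control score of 31753. There the CLAMP RNAi list had a weak peak of 200 bp and score 24 at 8677360 to 8677559, 131 bp beyond the edge of the control peak.

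The other strong control-only sites lay in or near genes of several kinds. In pum, the translational repressor Pumilio, the site at 3R 9202569 to 9202948 scored 6485, while another pum site at 3R 9226986 to 9227366 was common with scores of 17054 and 2474. In EcR, the ecdysone receptor, the site at 2R 6133562 to 6133945 scored 4522, and the nearest CLAMP RNAi peak was 6608 bp away. A site shared by imd, an adaptor of the immune response, and Dp1 lay at 2R 18412570 to 18412999 with a score of 4247. Other genes with such a site were Rip11, a Rab11 effector (X 18644469 to 18644849, score 6481), Pdp1, a transcription factor of the circadian clock (3L 7812083 to 7812463, score 2506), and scro, a homeobox gene (3L 24732292 to 24732676, score 2337). Over the 15 sites the gap to the nearest CLAMP RNAi peak ran from 131 to 10313 bp with a median of 1657 bp, and for 4 of them it was at most 1000 bp.

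The 15 strongest RNAi-only peaks scored from 293 to 3654 in a list whose highest score is 124978. Of these, 8 had no peak in either 0-2 h list, 6 had a peak in one of them and 1 in both. The first lay between genes at 3R 28377980 to 28378359, with a score of 3654 and 24549 bp from the odorant receptor gene Or98b. A common peak with joint rank among the first 15 lay in the same gap, at 3R 28373750 to 28374130. The second was in tmod, the actin capping protein tropomodulin, at 3R 30538872 to 30539253 with a score of 832. Others on the X lay in futsch, a microtubule-binding protein of neurons (1450252 to 1450630, score 556), in ctp, a dynein light chain (4700248 to 4700628, score 500), and in f, the bristle protein Forked (17239732 to 17240112, score 416). The ctp site stood 490 bp from a control peak of score 49750. At 2R 8280833 to 8281213 the gap to the nearest control peak was 45 bp, so that this site failed the overlap rule by little.

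Such near misses were a small part of either class. The nearest CLAMP RNAi peak was within 200 bp for 555 of the 14857 control-only peaks, or 3.74%, and farther than 10000 bp for 1378, or 9.28%. For RNAi-only peaks, 437 of 5563, or 7.86%, had a control peak within 200 bp. Among common peaks a few ranked high in one list and low in the other, and these were picked after their values were seen. Of the 1226 common peaks above the 95th percentile of the control list, 30 were below the 50th percentile in CLAMP RNAi. One such peak lay in cad, the posterior patterning gene caudal, at 2L 20776018 to 20776396, with a control score of 3963 beside a CLAMP RNAi score of 16. Its CLAMP RNAi partner, at 20776306 to 20776560, overlapped only the last part of it and reached beyond. In the other direction, a peak in the courtship gene fru at 3R 18504563 to 18504942 scored 15 in control and 339 in CLAMP RNAi.

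Gene spans were then matched with the peaks of each class, and a gene counted as carrying a common peak when a common peak of either list lay over it. Of 17673 genes on the 6 arms, 19.3% carried a common peak, 16.7% carried control peaks of which none was common, and 4.07% carried RNAi-only peaks and no control peak. A control peak, common or control-only, lay over 35.7% of genes and an RNAi-only peak over 13.7%. On the X, 775 of 2700 genes, or 28.7% (27.0% to 30.5%), carried a common peak, against 17.6% (17.0% to 18.2%) of autosomal genes. The shares of genes with control-only peaks and no RNAi-only or common peak were close, 13.85% (12.6% to 15.2%) on the X and 14.45% (13.9% to 15.03%) on the autosomes. Gene length went with these classes, with a median of 8522 bp for genes with a common peak, 2245 bp for genes with control-only peaks alone and 1200 bp for genes without a peak. All 89 genes over 100 kb and 95.3% of the 593 genes of 30 to 100 kb carried a common peak, against 26.4% of genes of 3 to 10 kb and 6.00% of genes under 1 kb.

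The 5 genes with the most peaks of each class spanned 164710 bp (dpr6) to 1965857 bp (Myo81F). The cell adhesion gene kirre on the X had 134 control peaks, of which 61 were common and 73 control-only, and 14 RNAi-only peaks. Myo81F, a myosin gene at the base of 3R, had 56 common, 61 control-only and 43 RNAi-only peaks. The teneurin gene Ten-a on the X had 51 common, 43 control-only and 16 RNAi-only peaks. At the RNA-binding protein gene bru3 on 3L the balance was 27 common to 46 control-only peaks, and at dpr6, an immunoglobulin domain gene on 3L, it was 9 to 21 with 15 RNAi-only peaks. The long noncoding RNA genes lncRNA:CR32773 and lncRNA:CR44357 on the X had 35 and 36 common, 44 and 44 control-only, and 15 and 16 RNAi-only peaks. The rugose gene rg on the X, whose span the table also gives to CG15465, had 40 common peaks among 64 control peaks.

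Among the 459 genes with at least 10 control peaks, 0 had none common and 0 had all common, and the median share of common peaks was 45.0%. With 40.6% of all control peaks common, a mix is likely at genes with that many peaks. Of the 1082 genes with at least 5, none was common in 33 and all were common in 4. Genes with 9 control peaks and none common were CG11030, CG43795, jigr1, mask, an ankyrin repeat protein, and arg, the arginase gene. Genes with 5 control peaks that were all common were the ABC transporter gene E23, bif, scyl and wech. The most RNAi-only peaks without any control peak, 4, lay over SPoCk, a calcium pump of the secretory pathway, on 3L. Cdk4, a cell cycle kinase gene on 2R, had 3, as did CG33978 and Gyf on chromosome 4 and CG1835 on the X.

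Counts for the gene lists are to be read beside the shares over all genes, which were 19.3% with a common peak, 16.7% with control peaks of which none was common and 4.07% with RNAi-only peaks and no control peak. These shares differ with gene length. Among genes of 3 to 10 kb, 26.4% had a common peak and 6.47% had RNAi-only peaks alone. Control-only peaks alone were found at 23.9% of genes of that length, and control-only with RNAi-only peaks at 5.10%. Of 12 genes of dosage compensation, 6 carried a common peak, 4 had control peaks of which none was common and 2 had no peak. Of the control peaks over them, 9 of 22 or 40.9% were common, close to the 40.6% of all control peaks. The gene of the RNAi target, Clamp, had a common peak of 889 bp at 2L 22166545 to 22167433, with a score of 17569 in control and 50 in CLAMP RNAi. These scores stood at percentiles 99.3 and 79.1 of their own lists. Clamp also had a control-only peak at 22168049 to 22168319 with a score of 153. Of the 2 control peaks in msl-1, the scaffold of the complex, 1 was common, with scores of 630 and 17 (percentiles 90.4 and 15.8). In JIL-1, a histone H3 kinase enriched on the male X, the common peak at 3L 11084283 to 11084959 scored 528 and 372 (percentiles 89.0 and 97.2). At Unr, a translational regulator of msl-2, 4 of 5 control peaks were common. The single peak in msl-2 and both peaks at roX2 were control-only, whereas 1 of 3 control peaks at roX1 was common. The msl-2 peak (2L 3465720 to 3466110) scored 1049, and a roX2 peak (X 11578624 to 11579116) scored 101. Both of these sites had a peak in the CLAMP RNAi list of 0-2 h and none in the control list of 0-2 h. The helicase gene mle and msl-3 had no peak in either list.

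Among 18 genes of sex determination, 8 carried a common peak and 5 had only control-only peaks. In Sxl, the switch gene of the pathway, 6 of 10 control peaks were common, and in dsx, its terminal transcription factor, 1 of 7. The strongest control-only dsx peak lay at 3R 7931647 to 7932249 with a score of 1012. Of the X-linked counting genes, run had 2 common peaks among 3 and upd1 had 1 of 1, while sisA and sc had none. The short splicing regulators tra and tra2 each had 1 control peak, which was control-only.

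Of 15 genes of GA-binding, pioneer and architectural factors, 8 had a common peak, 1 had control-only peaks alone and 6 had no peak. The insulator protein genes BEAF-32, CTCF and Cp190 were among those without a peak. The pioneer gene zld, on the X, had 4 common and 6 control-only peaks, and Trl, which encodes GAGA factor, had 2 and 4. The strongest common peak of the group was in grh, a pioneer factor of epithelia, at 2R 17824666 to 17825048 with scores of 39319 and 520. In opa, which acts both as a pair-rule gene and as a late pioneer factor, all 3 control peaks were common, and the strongest, at 3R 4867727 to 4868104, scored 34449 and 1101.

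Patterning genes active in the early embryo followed no single pattern. Common peaks were present at 6 of 12 gap genes, 2 of 9 pair-rule genes, 7 of 12 segment polarity genes, 9 of 19 dorsoventral genes and 6 of 10 Hox and Hox-complex genes. Control peaks with none common were found at 4, 4, 3, 2 and 2 genes of these lists. Among gap genes the strongest common peak was in tll, at 3R 30853884 to 30854264 with scores of 13789 and 305, and the peaks of Kr, gt, btd and slp1 were control-only. Of the pair-rule genes, hry, odd, prd and slp1 had no common peak among their control peaks, and eve, ftz and slp2 had no peak. In the Hox genes Antp and Ubx, 9 of 30 and 6 of 21 control peaks were common, and Ubx had 11 RNAi-only peaks. Over the whole Hox list 28.9% of 83 control peaks were common, beside 40.6% of control peaks in all and 38.3% on 3R, where all genes of the list lie.

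Of 9 cellularization genes 1, Pak, had a common peak, 4 (Sry-alpha, bnk, kuk and dia) had only control-only peaks and 4 had no peak. The highest of these control-only peaks scored 77, in bnk, beside a median of 48 over all control-only peaks. Cell cycle genes of the early embryo had a common peak in 3 of 13 (CycA, CycE and grp), or 23.1% beside 19.3% of all genes, and the mitotic phosphatase gene stg had 1 control-only and 1 RNAi-only peak. Of 13 germ plasm genes, 5, or 38.5%, had a common peak and 3, osk, gcl and piwi, had only RNAi-only peaks. That class held 4.07% of all genes and 6.47% of genes of 3 to 10 kb, the length range of these 3 genes. The strongest common peak of that list was in spir, an actin nucleator gene, at 2L 20344383 to 20344810 with scores of 2786 and 257.

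Long gene classes of the nervous system carried common peaks almost throughout, as did long genes as a whole. A common peak was present at 26 of 27 axon guidance and adhesion genes (median length 51960 bp) and at 20 of 21 ion channel genes (49100 bp). Of the control peaks over ion channel genes, 177 of 327, or 54.1%, were common, and for axon guidance and adhesion genes 250 of 576, or 43.4%. The share was 40.6% over all control peaks and 46.5% over genes longer than 100 kb. It was 48.7% on the X, where 9 of the 21 ion channel genes lie, and 38.0% on the autosomes. Autosomal channel genes with a control peak lay above that 38.0%, except Shab (3 of 14 common), KCNQ (3 of 8) and Ih (2 of 9). The strongest common channel peak was in SK, a calcium-activated potassium channel, at X 5350175 to 5350568 with scores of 89488 and 1155. In Sh, the Shaker potassium channel on the X, 29 of 49 control peaks were common and none of the CLAMP RNAi peaks was RNAi-only. The lone channel gene without a control peak was sei, which had 1 RNAi-only peak.

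RNA-binding and splicing factors, a group to which MLE is linked through its helicase activity, had a common peak at 16 of 28 genes and control peaks without a common one at 5. The long genes of the list held most of these peaks. In bru3 a common peak at 3L 13629418 to 13629799 scored 74882 and 3162, and in mbl 24 of 49 control peaks were common. The neuronal gene elav on the X had 7 control peaks, all control-only. Its span overlaps that of arg, so peaks counted for arg above are in part the same. B52 and Hrb98DE had only RNAi-only peaks. Of 20 Polycomb and Trithorax genes, 10 had a common peak, with the strongest in Su(z)2 at 2R 13002133 to 13002514 (scores of 8323 and 200), and all 3 control peaks there were common.

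**Figure D5:**
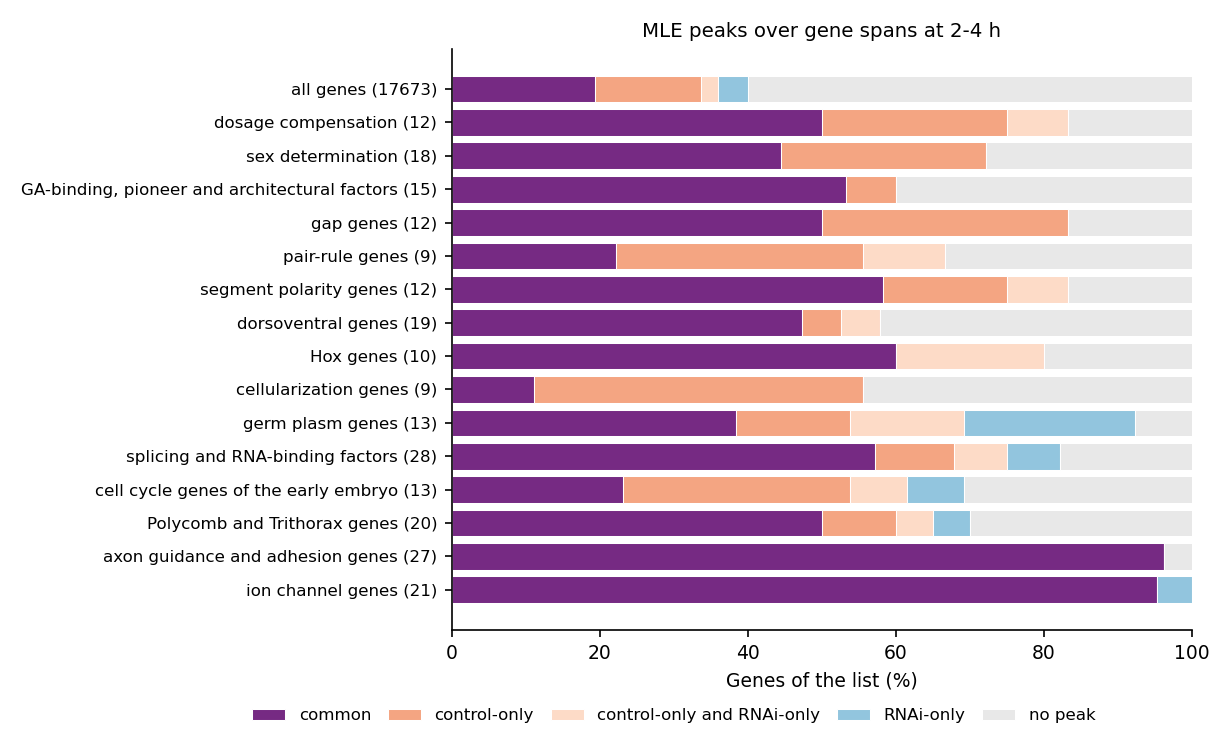
Share of genes, in percent, with a common peak, with control-only peaks, with control-only and RNAi-only peaks, with RNAi-only peaks alone or with no peak over the gene span, for all 17673 genes and 15 lists (number of genes in brackets). Axon guidance and ion channel genes are nearly all common, whereas cellularization genes have 1 of 9 common.

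Some stretches of the genome held runs of neighbouring control peaks of a single class. The longest run of control-only peaks, 21 over 40.45 kb at 2L 21438387 to 21478839, lay in the tandem array of replication-dependent histone genes. Their scores ran from 20 to 187, none had a peak in either 0-2 h list, and 1 RNAi-only peak lay in the stretch. Over the 111 histone genes, 9 of 68 control peaks were common, or 13.2% (6.24% to 23.6%). Peaks of the 0-2 h embryos matched 0 of the 68 in the control list and 6 in the CLAMP RNAi list. The histone copies are nearly identical, and how reads were placed among them is not stated. The next runs were 19 peaks over 73.95 kb at X 457319 to 531264, from CG32816 through svr, elav and arg to Appl, and 17 peaks over 52.45 kb at 3R 24232072 to 24284525, over mask and the myosin gene jar. Each held 5 CLAMP RNAi peaks, which are RNAi-only by the choice of the stretch. The 3 longest runs of common peaks were on the X, with 14 peaks at 18161736 to 18203081 over Frq1 and Frq2, which encode the calcium sensor frequenin, 14 at 20804788 to 20882741 over the innexin gene shakB and its neighbours, and 12 at 9719939 to 9750934 around Sp1.

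Bins of 1 Mb with at least 20 control peaks ranged widely. Over 136 bins the share of common peaks ran from 24.3% to 55.9%, with a median of 47.7% over the 24 bins of the X and 37.7% over the 112 autosomal bins. More than 50% was common in 9 X bins and 3 autosomal bins. The lowest bin was 2L 21000001 to 22000000, which holds the histone array, with 46 common peaks among 189. The next were 2L 15000001 to 16000000 (26.4%) and 2L 5000001 to 6000000 (29.1%). The highest were 3R 1 to 1000000, where 19 of 34 control peaks were common, X 5000001 to 6000000 (55.7% of 327) and 2R 3000001 to 4000000 (55.6% of 45).

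Genes of transfer RNA, with a median length of 73 bp, were covered more by control-only than by common peaks, as were short genes as a whole. Of 290 tRNA genes, 33 (11.4%) had a common peak, 72 (24.8%) had control-only peaks alone and 5 (1.72%) had only an RNAi-only peak. These classes held 6.00%, 10.5% and 2.91% of all genes under 1 kb, and 19.3%, 14.4% and 4.07% of all genes. Since neighbouring tRNA genes share peaks, the 81 control peaks over them were also counted, and 23 were common, or 28.4% (18.9% to 39.5%). The share was 41.2% (40.5% to 41.9%) for control peaks over protein-coding genes. Over all genes under 1 kb, with a peak counted for each gene, it was 34.1%, which lies within the tRNA interval. The median control percentile was 45.0 for the tRNA peaks and 51.3 for those of protein-coding genes.

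Common peaks lay slightly less often at gene ends than peaks of a single list. Peaks whose midpoint was at most 500 bp from a gene end made up 15.9% (15.2% to 16.7%) of common control peaks and 18.4% (17.8% to 19.0%) of control-only peaks, a difference of -2.46 points (-3.40 to -1.51). In the CLAMP RNAi list the shares were 15.8% (15.1% to 16.5%) for common and 18.5% (17.5% to 19.6%) for RNAi-only peaks, a difference of -2.71 points (-3.96 to -1.48). Positions inside a gene but farther from both ends accounted for 62.6% of common control peaks, 59.5% of control-only peaks and 57.1% of RNAi-only peaks. RNAi-only peaks were found between genes in 24.4% (23.3% to 25.5%), against 21.5% (20.7% to 22.3%) of common control peaks. The first difference was -1.39 points within 200 bp, and with a score of at least 50 in both lists the second was -0.72 points with an interval from -3.93 to 2.13 that includes 0.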

How the data were processed

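Each of the 4 groups had 1 peak list, and the comparison used both 2-4 h lists, with the 0-2 h lists as a lookup. The deposited lists carry the authors' score for each peak, with 13 as the lowest value. This score ranks peaks within its own list only. The submitters' processing notes name FastQC, Trim Galore, BWA, Bowtie2, SAMtools, Picard 2.20.2 and MACS2 and the build dm6, without roles. The threshold, any control library, the use of the yeast spike-in and any pooling of replicates are not given in the sources used here.

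Repeats of an interval (2697 in control, 68 in CLAMP RNAi) were collapsed. Overlap of at least 1 base was computed in Python 3.11.15 with pandas 2.3.3 and tested on simulated intervals. Shares carry exact Clopper-Pearson and differences Newcombe intervals (SciPy 1.17.1) of counting error over peaks, without molecular identifiers and without variation between embryos. For deciles, ties in score were broken at random (seed 1).

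Gene spans came from the RefSeq table of Release 6, the assembly of dm6, in which 17673 genes on the 6 arms have coordinates. A gene carried a peak when its span shared 1 base with it, and a peak over several genes counted for each. Spans were used as the table gives them, so counts per gene rest on them: twi, for example, has a span of 62952 bp there, over which 13 of the 65 control peaks of the dorsoventral list lie. Strand, promoter sequence and genome were not used here, so the planned promoter windows became midpoints at most 500 bp from a gene end, and the planned count of GA repeats in promoters was not analysed here. Of 240 entries in 15 gene lists, 238 matched a gene. Named are the 15 common peaks with the lowest sum of ranks, the 15 highest-scoring control-only and RNAi-only peaks, the 5 genes with most peaks of each kind, the 3 lowest and highest bins, and list members, mostly those with the highest-scoring peaks. List members named for their counts, and peaks that rank high in one list and low in the other, were picked after their values were seen. The members and lists were chosen with earlier results of these data known.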

Additional observations from a re-analysis of the deposited data

How the results depend on the processing

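With 1 list a group, no library could be left out and the read depth behind each list is not known, so every interval understates the error of a comparison of genotypes. No paired analysis was possible because each group has 1 list and the result comes from no test. The share of control peaks that were common (40.6%) was 38.0% when the overlap had to reach 50% of the shorter peak, 42.85% within 200 bp, 20.9% with a score of at least 50 in both lists (15549 control and 3887 CLAMP RNAi peaks), 53.4% with both lists restricted to 15890 peaks and 60.6% for the upper 50% by score. The RNAi-only share (35.0%) was 39.45%, 32.3%, 16.3%, 45.5% and 20.1% in the same order. The difference between X and autosomes kept its sign in the 5 alternatives and left its main interval in 2 of them, at 6.95 points with a score of at least 50 and 8.30 points for the upper 50%. The difference at gene ends between common and control-only peaks was -1.39 points within 200 bp, a window chosen after seeing the data. Between common and RNAi-only peaks it was -0.72 points with a score of at least 50. The other settings run for both gene end differences gave values within their main intervals. The causes were not tested. The distance to gene starts and the motif alternatives were not run, since strand and promoter sequence were not used here.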

Other observations

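Scores of weak CLAMP RNAi peaks were distributed differently on the X. At the 4 commonest scores of that list (24, 32, 17 and 41), 17.7% (16.9% to 18.5%) of 9079 peaks lay on the X. At the other scores up to 41, 46.4% (44.5% to 48.4%) of 2584 peaks did. In the control list the corresponding shares were 18.8% (17.4% to 20.3%) of 2728 peaks and 20.9% (19.7% to 22.1%) of 4746 peaks, whose intervals overlap. This was noticed after the values were seen, and its cause was not tested.

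Peaks over small nuclear RNA genes and ribosomal RNA pseudogenes were few and strong. All 3 control peaks over snRNA genes were common, with scores from 1152 to 3543. Of 12 control peaks over ribosomal RNA pseudogenes, 9 were common, with a median control percentile of 91.4.

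The measures of this comparison pointed the same way at 0-2 h, where 58.1% (57.5% to 58.7%) of control peaks were common and the difference between X and autosomes was 12.5 points (11.2 to 13.8). The gene end differences were -3.34 points for common against control-only peaks and -3.32 points for common against RNAi-only peaks at that age. The difference between ages was not tested.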
